A study of Mus musculus with 5 samples.

Results

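The glutathione S-transferase genes described here were 10 of the 23361 genes listed in each file, namely Gstm1, Gstm2, Gstm4, Gstm5, Gstm6, Gstm7, Gsta4, Gsto1, Gstp1 and Gstt1, found by their symbols. They were chosen by measured values, the FPKM of Gstm2 having been seen to be higher in Hdac1 cKO than in control hippocampus in these same libraries, so their differences between the groups are given as a description, and counts of members past a threshold in that contrast support nothing. The question was whether the higher level of Gstm2 extended to related genes. RNA-seq had been run on the hippocampus of mice 3 months old. The control group (n = 2) carried the conditional allele alone (genotype label Hdac1f/f, WT in the sample titles), and the cKO group (n = 3) carried the same allele with Nestin-Cre, so the floxed allele was common to all 5 libraries. Nestin-Cre acts in the precursors of neurons and astrocytes, and microglia, which come from another lineage, keep the gene. The values were FPKM, the number of sequenced fragments scaled to transcript length and to library depth, a measure that allows levels of different genes to be compared.

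Glutathione S-transferases join the tripeptide glutathione to reactive, electron-poor compounds, among them products of lipid oxidation, which are then exported from the cell. The cytosolic enzymes fall into classes named by Greek letters. The Mu class (Gstm genes) sits in 1 cluster, and the Alpha (Gsta), Omega (Gsto), Pi (Gstp) and Theta (Gstt) classes are encoded elsewhere. Many of these genes respond to NRF2, the transcription factor that raises detoxifying and antioxidant enzymes under oxidative stress, and in the brain several are made mainly by astrocytes.

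The Mu class members share much of their coding sequence. On mm9 (NCBIM37) the cluster spanned 149074 bases of chromosome 3. In order along the chromosome, Gstm5 lay at 107698739 to 107701604 on the plus strand, Gstm7 at 107729252 to 107734735, Gstm6 at 107741765 to 107746667, Gstm2 at 107784620 to 107789371, Gstm1 at 107815173 to 107820891 and Gstm4 at 107843326 to 107847812, the last 5 on the minus strand. Gsta4 lay on chromosome 9 (78039773 to 78057155, plus strand), Gstt1 on chromosome 10 (75246558 to 75261329, minus strand), and Gstp1 (4035411 to 4037921, minus strand) and Gsto1 (47929460 to 47939280, plus strand) on chromosome 19. All 10 were annotated as protein-coding.

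The coding sequence of Gstm2 (657 nucleotides) was 86.0% identical to that of Gstm1, with an unbroken identical run of 60 nucleotides, 85.5% identical to Gstm6, 84.9% to Gstm7, 82.6% to Gstm4 and 72.5% to Gstm5. Nucleotides 128 to 247 of the Gstm2 coding sequence are the stretch of 120 nucleotides in which Gstm2 and Gstm1 were most alike. It is shown because short reads from it are the hardest to place on 1 gene of that pair. Capitals mark bases that differ from Gstm2, of which Gstm1 had 3, Gstm6 had 8 and Gstm5 had 28.
Gstm2: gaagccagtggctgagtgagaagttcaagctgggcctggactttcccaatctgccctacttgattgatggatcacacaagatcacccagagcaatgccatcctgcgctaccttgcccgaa
Gstm1: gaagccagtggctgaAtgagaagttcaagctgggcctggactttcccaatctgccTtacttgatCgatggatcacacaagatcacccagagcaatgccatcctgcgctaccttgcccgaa
Gstm6: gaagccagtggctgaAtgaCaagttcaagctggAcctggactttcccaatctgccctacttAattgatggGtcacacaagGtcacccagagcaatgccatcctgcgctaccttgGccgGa
Gstm5: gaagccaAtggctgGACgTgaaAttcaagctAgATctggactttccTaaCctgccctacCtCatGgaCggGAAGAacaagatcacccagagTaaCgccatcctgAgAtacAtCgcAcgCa

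The stretch in which Gstm2 and Gstm1 were least alike, nucleotides 532 to 651, is shown because reads from it tell that pair apart. There Gstm7 differed from Gstm2 at 23 bases and Gstm1 at 26.
Gstm2: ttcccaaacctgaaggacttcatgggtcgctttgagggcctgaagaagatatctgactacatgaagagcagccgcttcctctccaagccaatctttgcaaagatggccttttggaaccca
Gstm7: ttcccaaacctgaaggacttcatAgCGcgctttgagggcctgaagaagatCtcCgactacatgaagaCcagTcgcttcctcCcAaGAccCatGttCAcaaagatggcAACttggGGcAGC
Gstm1: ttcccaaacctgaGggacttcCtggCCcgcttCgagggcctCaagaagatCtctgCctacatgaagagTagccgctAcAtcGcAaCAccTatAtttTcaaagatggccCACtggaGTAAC

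Over whole transcripts, 110 of 1015 windows of 50 nucleotides of the longest Gstm2 transcript (10.8%) occurred without a mismatch in a transcript of another gene. Of these windows, 56 were in Gm12499, 46 in Gm6665 and 11 in Gstm1. The share was 14.8% for Gstm1 (124 of its 183 shared windows in Gstm3) and 12.04% for Gstm6 (76 in Gstm3). It was 10.1% for Gstm5, where all 104 shared windows lay in 4933431E20Rik, a gene on the opposite strand whose exons overlap those of Gstm5 by 178 nucleotides. For Gstm4, Gstm7, Gsta4, Gsto1 and Gstt1 no window was shared. Gstp1 shared 475 of 704 windows (67.5%) with Gstp2, and the coding sequences of that pair were 98.1% identical. How the deposited values divide reads between Gstp1 and Gstp2, and between overlapping genes, is therefore uncertain.

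**Figure D1:**
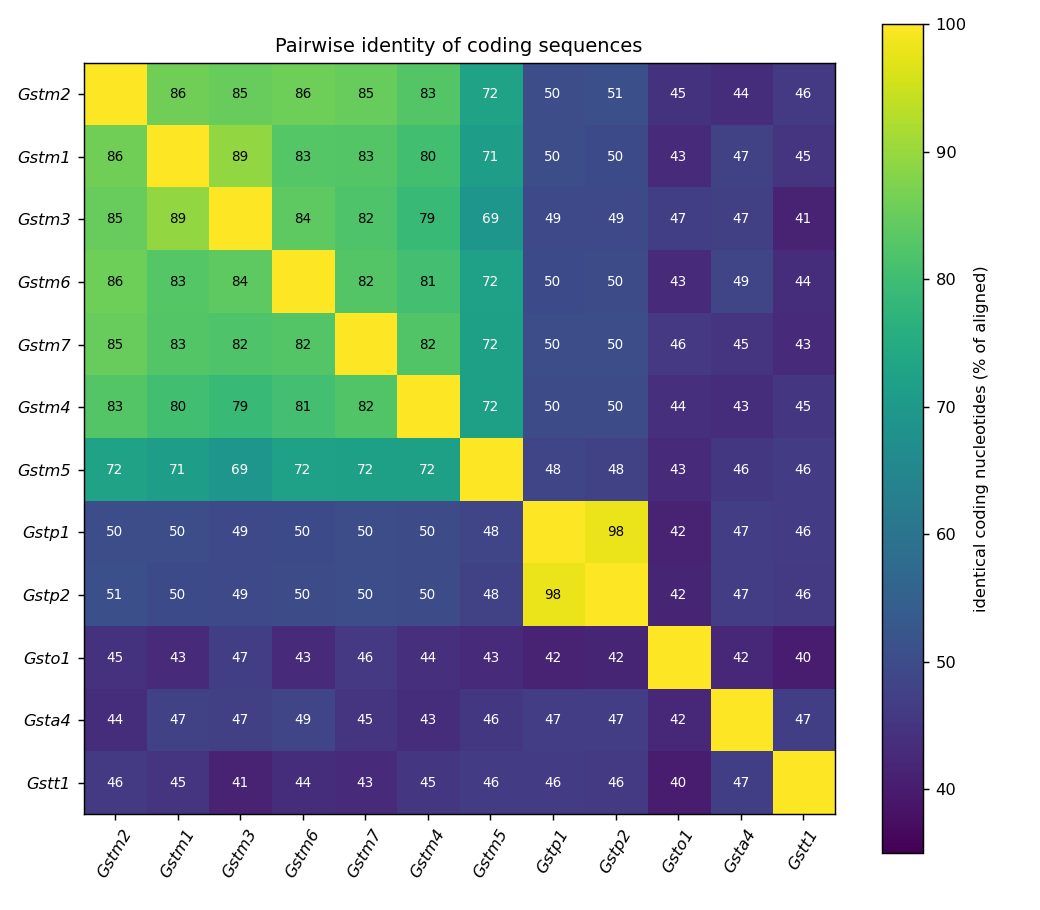
Percent of aligned coding nucleotides that were identical for each pair of 12 glutathione S-transferase genes, with the colour scale from 35 to 100%. The Mu genes form a block from 69 to 89%, Gstp1 and Gstp2 reach 98%, and pairs from different classes stay at or below 51%.

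The labelled tissue was checked first. All 12 neuron markers were above 0 in every library, among them Neurod6 and Prox1, which are expressed in the principal neurons of the hippocampus, at 64.0 to 87.3 and 14.0 to 16.4 FPKM. Hdac1 was at 8.95 and 13.1 FPKM in controls and at 1.95, 3.12 and 3.37 FPKM in cKO, a difference of -1.66 ± 0.215 on the log2(FPKM + 1) scale (SE; limma adjusted p = 0.219). The limma adjusted p was 0.0115 with the replicate number as a block and 0.00389 with the set of libraries, described next, as a block. Steps in the low values implied about 5120000 to 6750000 mapped fragments per library and placed control 1 and cKO 1 in one set of libraries, and control 2, cKO 2 and cKO 3 in a second. Choroid plexus RNA varied widely without regard to group, with summed markers at 167 and 6.82 FPKM in controls and at 75.3, 604 and 25.1 FPKM in cKO. The study gives the number in each group as mice, and the labels of the libraries name no animal.

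The members covered a wide range of levels in the hippocampus, and Gstm2 was the lowest of them. Gstm5 (mean of all libraries 298 FPKM) was the highest and only 246 of all the genes listed exceeded it. Gstm1 followed at 218 FPKM, then Gstp1 at 118 FPKM, Gsta4 at 62.4 FPKM, Gsto1 at 29.2 FPKM and Gstm7 at 20.8 FPKM. At the lower end Gstm6 had a mean of 10.7 FPKM, Gstt1 8.21 FPKM, Gstm4 2.87 FPKM and Gstm2 1.13 FPKM. Of neighbours in this order, Gstm6 and Gstt1 overlapped between libraries, and the ranges of the other neighbours did not.

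Gstm2, a Mu class transferase, was at 0.782 and 0.477 FPKM in control 1 and control 2, and at 1.42, 1.64 and 1.34 FPKM in cKO 1, cKO 2 and cKO 3. Every cKO library was above both controls. The mean was 0.629 ± 0.216 FPKM in controls (SD, n = 2) and 1.47 ± 0.155 FPKM in cKO (SD, n = 3), a ratio of 2.33. The fitted difference in log2(FPKM + 1) was 0.60 ± 0.168 (SE). A pseudocount of 1 compresses the change of a gene this low, and with a pseudocount of 0.1 it was 1.13. Within the first set of libraries it was 0.44 and within the second 0.75.

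The depth behind these values was small. At the estimated depth and the length of its longest transcript, Gstm2 rested on about 6 and 3 fragments in the controls and on about 10, 9 and 9 in the cKO libraries. Pooled over each group this came to 9 fragments in controls (95% exact Poisson interval 4.12 to 17.1) and 28 in cKO (18.6 to 40.5). Divided by the pooled depth in units of 1000000 fragments, the rates were 0.677 in controls (0.310 to 1.29) and 1.54 in cKO (1.02 to 2.22), and the intervals, which cover counting error only, overlapped. By contrast Gstm1 rested on about 1352 to 1996 fragments per library.

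**Figure D2:**
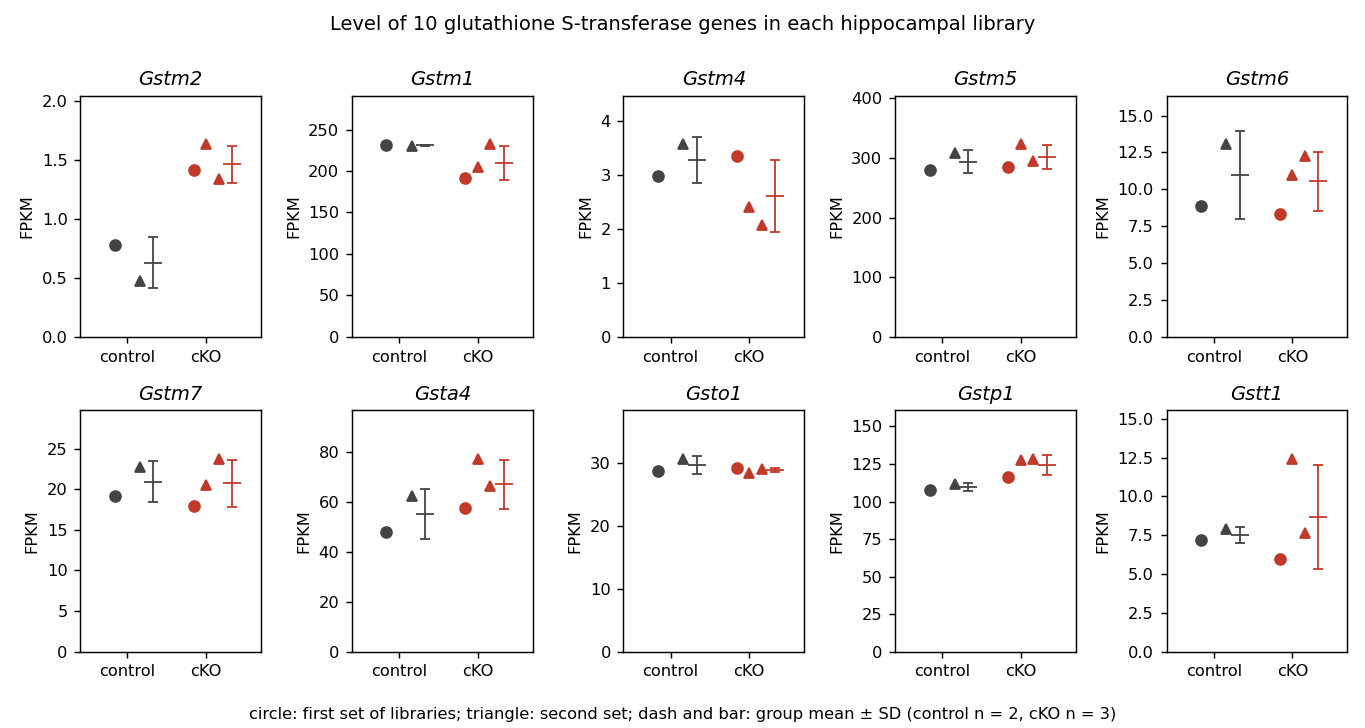
FPKM of the 10 members in each library, on axes that start at 0 and differ between panels; circles are the first set of libraries and triangles the second, and the dash and bar give the mean ± SD (control n = 2, cKO n = 3). The cKO libraries lie above both controls for Gstm2 and Gstp1, and for the other 8 genes the groups overlap.

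The other Mu genes did not share the pattern of Gstm2. Gstm1, a Mu enzyme abundant in astrocytes, was at 231 and 231 FPKM in controls and at 192, 205 and 233 FPKM in cKO. Its highest and lowest libraries were both cKO, and the fitted difference was -0.14 ± 0.109 (SE, log2). Gstm5, the Mu gene most distant in sequence from the rest, was at 279.9 and 308 FPKM in controls and at 286, 324 and 294 FPKM in cKO. The groups overlapped, with a difference of 0.04 ± 0.103 (SE, log2).

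The 3 Mu genes of intermediate and low level also overlapped between the groups. Gstm7 was at 19.1 and 22.7 FPKM in controls and at 17.9, 20.5 and 23.7 FPKM in cKO. Gstm6, which overlaps the exons of Gstm3 by 82 nucleotides on the same strand, was at 8.87 and 13.1 FPKM in controls and at 8.33, 11.0 and 12.3 FPKM in cKO. In both genes the lowest values came from the first set of libraries in each group. Gstm4 was at 2.97 and 3.57 FPKM in controls and at 3.34, 2.41 and 2.07 FPKM in cKO, a difference of -0.26 ± 0.180 (SE, log2), the lowest of the 10. Within the first set of libraries Gstm4 was higher in cKO by 0.13 and within the second it was lower (-0.50). Gstm3, a Mu gene outside the 10, was listed at 0 in 3 of 5 libraries and reached 0.143 FPKM.

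**Figure D3:**
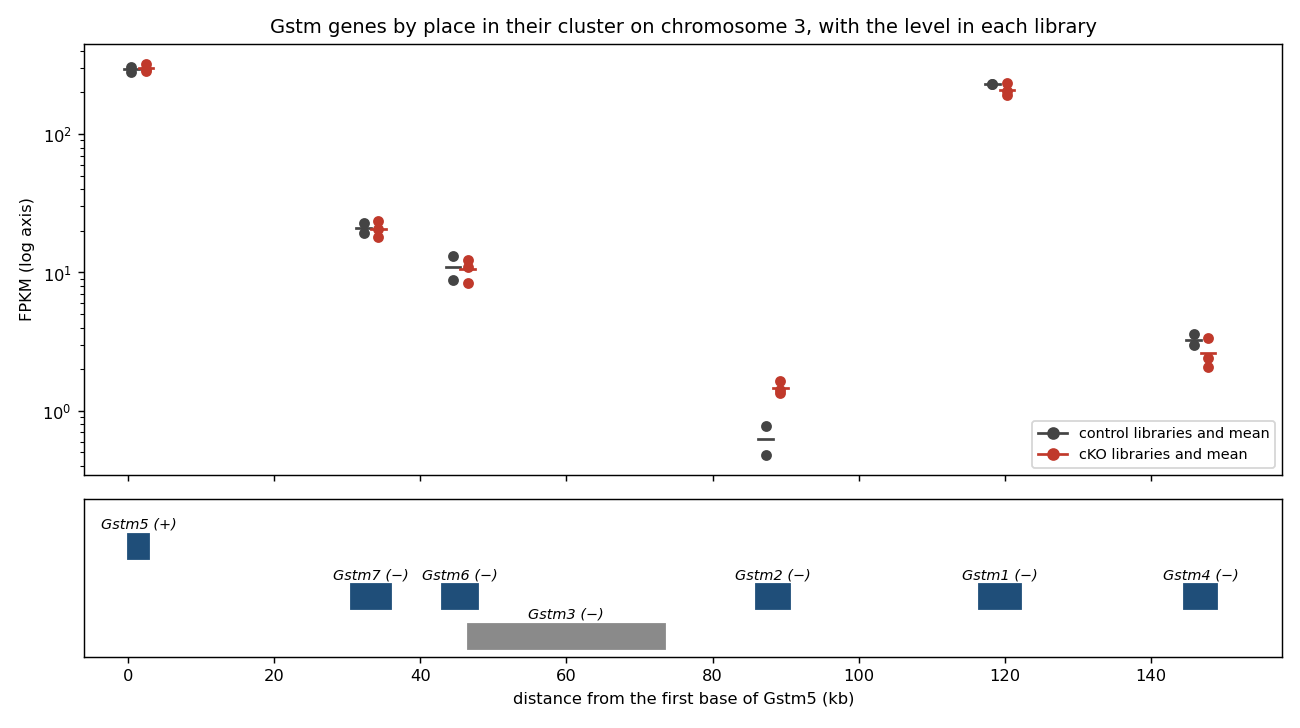
Place of the Gstm genes along chromosome 3 as distance in kb from the first base of Gstm5 (lower panel, strand in brackets, Gstm3 in grey) and the FPKM of each member in every library on a log axis (upper panel, points are libraries and lines are group means). Only at Gstm2 do the control and cKO points separate, between neighbours with overlapping groups.

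Reads from similar genes can be assigned to any of them. A sum over the Gstm members does not depend on how reads were divided among those 6, but it does depend on how reads were divided between them and Gstm3 or the Gm genes named above, which hold most of the windows shared by Gstm1, Gstm2 and Gstm6. Summed over the 6 Gstm members, FPKM times transcript length in kb came to 644 and 684 for the controls, and to 598, 662 and 671 for the cKO libraries. The means were 664 ± 28.4 (SD, n = 2) and 644 ± 39.6 (SD, n = 3), a difference of -3.05%, and the groups overlapped. Gstm2 made up 0.129% (control 1) and 0.0742% (control 2) of this sum, compared with 0.253%, 0.263% and 0.212% in cKO 1, 2 and 3.

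The Gstm2 level was also set beside that of a neighbour. Against Gstm1, the closest member in sequence, the Gstm2 level was 0.338% and 0.207% in control 1 and 2, compared with 0.741%, 0.7996% and 0.575% in cKO 1, 2 and 3. Of the 110 shared windows of Gstm2, 11 were in Gstm1, and most were in Gm12499 or Gm6665, whose levels are not given here. Whether reads of these or of other Mu genes contributed to the Gstm2 values was not tested.

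Among the other classes, the Pi class gene Gstp1 was the only member besides Gstm2 whose groups did not overlap. Its levels in controls were 108 and 112 FPKM, and in cKO 116, 128 and 129 FPKM. The means were 109.7 ± 2.60 (SD, n = 2) and 124 ± 6.87 FPKM (SD, n = 3), a ratio of 1.13. Gstp2, its near-identical copy, was at 2.34 and 1.19 FPKM in controls and at 2.33, 1.84 and 3.50 FPKM in cKO. Summed over both copies, FPKM times length in kb was 83.0 and 84.9 in controls and 89.3, 97.7 and 99.4 in cKO, so the groups were separate for the sum as well.

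Gsta4, an Alpha class enzyme that detoxifies the lipid oxidation product 4-hydroxynonenal, was at 48.1 and 62.3 FPKM in controls and at 57.8, 77.4 and 66.5 FPKM in cKO. The groups overlapped through control 2, and the difference was 0.28 ± 0.153 (SE, log2). Within the first set of libraries it was 0.26 and within the second 0.20. Without control 1 it was 0.10 and without control 2 it was 0.46. Gsto1, an Omega class enzyme, was the steadiest member, at 28.7 and 30.7 FPKM in controls and at 29.2, 28.5 and 29.1 FPKM in cKO. Gstt1, of the Theta class, was at 7.17 and 7.88 FPKM in controls and at 5.98, 12.4 and 7.62 FPKM in cKO. A single library, cKO 2, carried its higher mean in cKO, and the other 2 cKO libraries lay within or below the control range.

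Counted over the 10 members, 5 had a fitted difference above 0 and 5 below it, with a median of 0.0094, beside a median of 0.0146 over the 12740 tested genes (those averaging 1 FPKM or more). Gstm2 was the 1 member with an unadjusted limma p under 0.05, a mark reached by 4.36% of all tested genes, and the 1 member that also passed 1.5-fold, as did 0.659% of all tested genes. Without control 2, Gstm2 did not pass and Gsta4 did. Every cKO library lay above both controls for 2 members, against 11.0% of tested genes, and below both for 0 members, against 9.41%. With the replicate number as a block, 3 members (Gstm2 and Gsta4 higher, Gstm1 lower) had an unadjusted limma p under 0.05, against 11.2% of all tested genes. With the set of libraries as a block, 3 members (Gstm2, Gsta4 and Gstp1, all higher) did, against 9.34%. These counts use the contrast by which the members were chosen, and nothing is read from them.

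**Figure D4:**
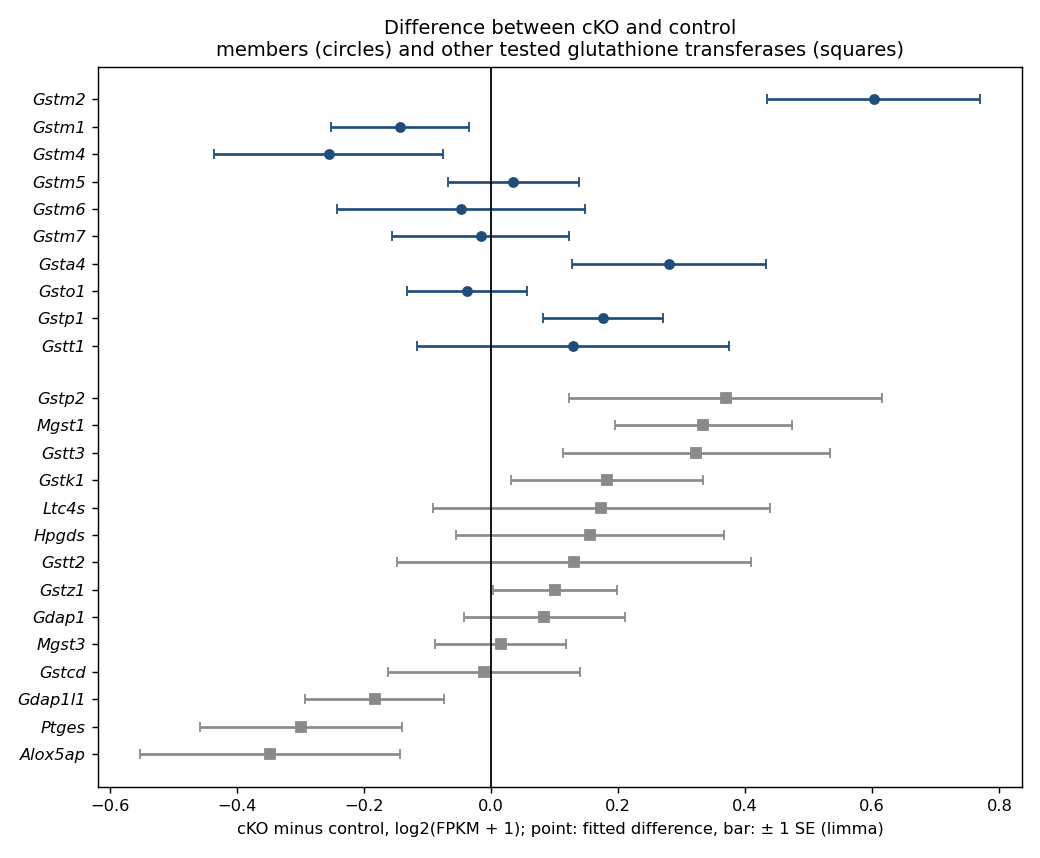
Fitted difference between cKO and control on the log2(FPKM + 1) scale with 1 SE (limma) for the 10 members (circles) and the 14 other glutathione transferases that were tested (squares, in order of size). Gstm2 lies at 0.60, and the other members lie between -0.26 and 0.28.

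The difference between the sets of libraries, with genotype in the model, was not used to choose the members and was tested. No member passed an adjusted limma p of 0.05, whereas 3.09% of all tested genes did. At an unadjusted limma p under 0.05, 3 of the 10 passed, all higher in the second set, against 22.9% of all tested genes. They were Gstm6 (0.47 ± 0.0974 SE on the log2 scale, limma adjusted p = 0.0503), Gsta4 (0.33 ± 0.0816, adjusted p = 0.0700) and Gstm7 (0.26 ± 0.0902, adjusted p = 0.143). The Gstm2 difference between the sets was -0.09 ± 0.176 (SE; limma adjusted p = 0.787). When each library was rescaled to a common total, a scaling that took the median set difference over all tested genes from 0.05 to 0.13, Gstm6 and Gsta4 did pass, at limma adjusted p = 0.0265 and 0.0291, and with a minimum mean of 5 FPKM Gstm6 did, at 0.0369. Under these settings 8.58% and 7.36% of all tested genes passed.

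Beyond the members, 14 of 21 other glutathione transferases reached a mean of 1 FPKM and were tested between cKO and control. At an unadjusted limma p under 0.05, 1 rose and 0 fell, a share of 7.14% beside the 4.36% of all tested genes. The median difference was 0.12, against 0.01 over all tested genes, and 10 of the 14 were above 0, as were 6844 of all 12740 tested genes. The gene that passed was Mgst1, a membrane-bound transferase of microsomes and mitochondria, at 20.1 and 16.6 FPKM in controls and at 26.3, 20.2 and 23.7 FPKM in cKO. Its difference was 0.33 ± 0.139 (SE; limma adjusted p = 0.955), and it did not pass when the libraries were scaled in any of the 3 other ways tried, nor without control 2, cKO 1 or cKO 3. Gsto2, the neighbour of Gsto1, was too low to be tested and was singled out after its values were seen. Its level was 0.302 and 0.386 FPKM in controls, and 1.35, 0.993 and 0.676 FPKM in cKO.

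Next came the genes that make, recycle and export glutathione, or use it as a reductant. Of 37 listed genes 27 were tested, of which 1 rose and 0 fell at an unadjusted limma p under 0.05. That share, 3.70%, was near the 4.36% of all tested genes, and the median difference was 0.03. When the replicate number was a block, 4 rose and 1 fell (11.2% of all tested genes passed in that fit), and when the set was, 2 rose and 0 fell (9.34% of all tested genes). The one that rose was Slc7a11, the light chain of the cystine/glutamate exchanger that brings in cystine for glutathione synthesis. Slc7a11 was at 12.3 and 12.7 FPKM in controls and at 18.3, 17.0 and 17.6 FPKM in cKO, so every cKO library stood well above both controls. Its difference was 0.46 ± 0.101 (SE; limma adjusted p = 0.955), with 0.53 within the first set of libraries and 0.42 within the second.

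Among targets and regulators of NRF2, 30 of 32 genes were tested. Only Slc7a11, which is also on this list, passed an unadjusted limma p of 0.05. That share, 3.33%, was near the 4.36% of all tested genes. Of the 30, 11 were above 0 and 19 below, where 6844 of all 12740 tested genes were above 0. The median difference was -0.05, and no gene of any list passed an adjusted limma p of 0.05. Promoters 300 bases long (RefSeq, GRCm38.p6) were available for 9 members, with several for members that have several start sites. The core of the antioxidant response element (TGACNNNGC, either strand) was found in that of Gstm5 and not in that of Gstm2. For Gstm7 it was found at start site 2 and not at start site 1. It occurred in 12.4% of 32851 promoters of that length. No match says only that these letters are not in this window.

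Genes on either side of the Gstm cluster, within 250 kb, were compared to see whether Gstm2 lay in a wider region of higher levels. Of the 11 tested, 0 rose and 1 fell at an unadjusted limma p under 0.05, with a median of -0.08. With 1 of 11 the share was 9.09%, beside 4.36% of all tested genes. The gene that fell was Ahcyl1, a partner of the inositol trisphosphate receptor, at 94.0 and 84.8 FPKM in controls and at 79.7, 56.6 and 66.6 FPKM in cKO (-0.41 ± 0.145 SE; limma adjusted p = 0.955). Ahcyl1 no longer passed without control 1, cKO 2 or cKO 3. The other 10 neighbours, Csf1, 4933431E20Rik, Ampd2, Gnai3, Gpr61, Amigo1, Cyb561d1, Atxn7l2, Psma5 and Sort1, lay between -0.18 and 0.10. The highest of them was Psma5, a proteasome subunit, at 91.3 and 89.7 FPKM in controls and at 99.8, 92.9 and 98.4 FPKM in cKO.

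The genes given here as following Gstm2 most closely over the 5 libraries were not transferases. Likeness was measured as the root mean square difference of log2(FPKM + 1), each gene centred on its own mean, over the 9191 tested genes averaging 5 FPKM or more. Of the 5 nearest, 4 are given here: Cd38, an enzyme that consumes NAD, at 0.0753, Tmem17, a protein of the ciliary transition zone, at 0.0878, Ednrb, an endothelin receptor, at 0.0922, and Rab7l1, a small GTPase of membrane traffic, at 0.106. With 5 libraries in 2 groups, any gene higher in cKO by a like amount on this scale is near Gstm2, so the order is a description. The scale compresses the change of Gstm2, whose ratio of cKO to control FPKM was 2.33. For the 4 genes that ratio was 1.44, 1.41, 1.40 and 1.49, in the order given.

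Among the members the nearest to Gstm2 was Gstp1, at 0.241, and 939 of the other 12739 tested genes were nearer than that. Gsta4 followed at 0.275. The farthest were Gstm6, at 0.440, and Gstm4, at 0.477, with 11948 of the tested genes nearer than Gstm4. By this measure Gstm1, the closest member in sequence, lay farther than Gstp1 and Gsta4, at 0.395. The measure uses the contrast by which the members were chosen and a Gstm2 profile of few fragments, so this is a description.

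**Figure D5:**
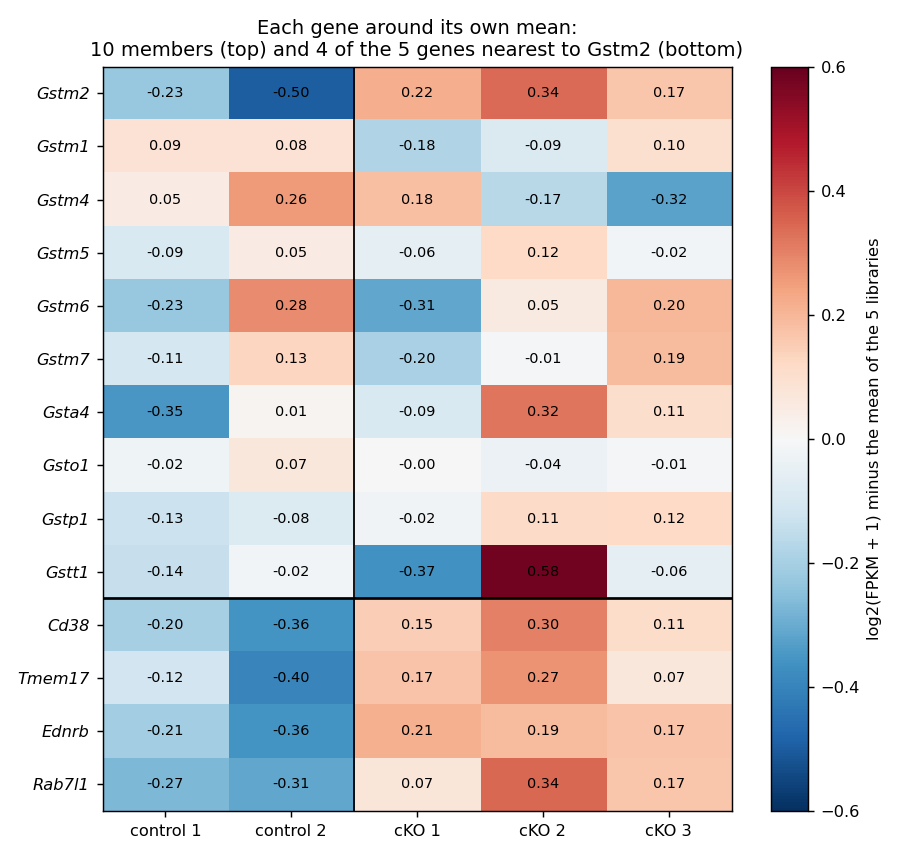
Log2(FPKM + 1) of each gene in each library minus its mean over the 5 libraries, for the 10 members and, under the line, 4 of the 5 genes nearest to Gstm2. Gstm2 and these 4 genes are below their means in both controls and above them in all 3 cKO libraries, a pattern shared among the other members only in part.

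Markers of other cell types were set beside the Gstm2 values, because in bulk tissue fewer cells of a type and less RNA per cell cannot be told apart. Summed over 12 astrocyte markers, the level was 2856 to 2874 FPKM in controls and 3107 to 3270 FPKM in cKO. Of these markers 9 were above 0, as were 6844 of all 12740 tested genes. At an unadjusted limma p under 0.05, 2 passed (16.7%), beside 4.36% of all tested genes. The 2 were Aqp4, the water channel of astrocyte endfeet (0.78 ± 0.0925 SE), and Gfap, the astrocyte intermediate filament (0.43 ± 0.113 SE). The 3 below 0 were Aldh1l1 (-0.02), Aldoc (-0.04) and Sox9 (-0.04), and Gjb6 (0.008) and Fgfr3 (0.002) were nearly level. With the replicate block 3 of the 12 passed and with the set block 6 did, all higher in cKO, where these fits called 11.2% and 9.34% of all tested genes. The limma adjusted p of Aqp4 was 0.175 without a block, 0.0249 when the replicate number was the block and 0.0187 when the set was. Summed over 10 markers of leptomeningeal fibroblasts, the level was 50.04 to 59.9 FPKM in controls and 62.9 to 71.3 FPKM in cKO. All 7 that were tested were above 0, beside 6844 of all 12740 tested genes. Igf2 and Ogn passed an unadjusted limma p of 0.05, a share of 28.6% beside 4.36% of all tested genes. No marker of either list was at 0 in any library.

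The sums of both lists were thus higher in every cKO library, as were Gstm2 and Gstp1, and their part in those values was not tested. Neuron markers leaned the other way, with 10 of 12 below 0 and a median difference of -0.12, although their summed level overlapped between the groups (2141 to 2310 FPKM in controls, 2050 to 2223 FPKM in cKO). At an unadjusted limma p under 0.05, 1 of them fell (8.33%, beside 4.36% of all tested genes). It was Stmn2, a regulator of microtubules, at 71.9 and 78.7 FPKM in controls and at 61.7, 64.9 and 63.5 FPKM in cKO. With the replicate block 6 neuron markers fell and 1 rose, and with the set block 2 fell, in fits that called those same larger shares of all genes. Their part in the values of the members was not tested. The summed markers of choroid plexus epithelium, ependymal cells, endothelial cells, mural cells, oligodendrocytes, oligodendrocyte precursors and microglia also overlapped between the groups.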

How the data were processed

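Hippocampal total RNA had been sequenced on an Illumina HiSeq instrument. Per the study's methods and the submitters' processing notes, the authors aligned reads to mm9 with TopHat and Bowtie and estimated FPKM with Cufflinks 2.0.0. Read length, strand use and the treatment of reads that match several genes were not given in the sources used here. The deposited FPKM were used as they stand, with no count test.

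Genes averaging 1 FPKM or more (12740) were compared on log2(FPKM + 1) with limma 3.58.1 in R 4.3.3 (trended eBayes, two-sided, Benjamini-Hochberg over all tested genes), a fit that was tested on simulated data. Groups came from the sample titles. The members and gene lists were chosen with earlier results of these data known. Named genes were the members, Hdac1, list genes with an unadjusted limma p under 0.05, all tested neighbours of the Gstm genes within 250 kb and the 5 genes nearest to Gstm2, of which 1 is not reported here. Gstp2, Gstm3 and Gsto2 were added after their values were seen, and marker genes for their role.

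Depth was estimated from the commonest low value of FPKM times length, taken as 1 fragment. It held 30 of 665 low values in control 1, 38 of 672 in cKO 1 and 73 to 77 in the libraries of the second set. Fragment numbers are back-calculated from this depth and rounded, and their intervals leave out its error. Sets of libraries were pairs with over 10% of low genes (mean under 0.3 FPKM) at 1 ratio, within 0.05 on the log2 scale: 24.6 to 28.4% within sets and 3.71 to 4.64% across them. What the sets stand for is not given in the labels. Positions and transcripts were from GENCODE vM1 on NCBIM37, which is mm9, and coding sequences were aligned with MAFFT 7.526. Alternatives were another pseudocount, filter, scaling or variance trend, blocks, single sets and libraries left out.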

Additional observations from a re-analysis of the deposited data

How the results depend on the processing

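The Gstm2 difference (0.60, log2) stayed above 0 under the 15 alternatives that gave a value. Every cKO library lay above both controls, and the members were chosen with that difference known. The sign was thus largely fixed in advance, and nothing is read from it. The difference was 1.13 with a pseudocount of 0.1, 0.44 within the first set of libraries and 0.75 within the second. With 1 library left out it was 0.47 to 0.74, lowest without control 2. A minimum mean of 5 FPKM left Gstm2 untested. Gstm1, Gsta4 and Gstp1 also kept their sign under all 16 of their alternatives, and Gstm4, Gstm5, Gstm6, Gstm7, Gsto1 and Gstt1 did not. The Gstm sum ranged from -0.09 to 0.01 (log2) with 1 library left out.

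With the replicate block the Gstm2 difference was 0.64 and the Hdac1 difference -1.77 (limma adjusted p = 0.0115), and with the set as a block the Hdac1 difference was -1.74 (adjusted p = 0.00389). Replicate numbers share no stated origin. Deviations from the group means correlated at 0.402 for the libraries numbered 1 and at 0.269 for those numbered 2. Control 2 and cKO 3, of the same set but with different numbers, correlated at 0.151. With 2 controls, the deviation of 1 is the negative of the other, so these values are not separate observations. With only 2 numbered pairs, each within 1 set, the effect of number cannot be told apart from that of set.

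Genes past 1.5-fold with an unadjusted limma p under 0.05 numbered 84, 142 with a pseudocount of 0.1, 43 with a minimum mean of 5 FPKM, 133 with the replicate block and 92 to 231 with 1 library left out, highest without control 2. Genes past an adjusted p of 0.05 between the sets numbered 394, 676 with a minimum mean of 5 FPKM and 1093 after rescaling to a common total.

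Counts at an unadjusted limma p under 0.05 were as follows, beside shares of all tested genes of 4.36%, 11.2% with the replicate block, 9.34% under the set block and 3.04 to 7.61% with 1 library left out, highest without cKO 1. Of the members, whose choice used this contrast so that nothing is read from their counts, 1 passed, 0 with a minimum mean of 5 FPKM, 3 with the replicate block, 3 under the set block and 1 to 3 with 1 library left out, most without cKO 1; without control 2 the member that passed was Gsta4 and not Gstm2. Of the other transferases, 1 passed, 2 with no filter on FPKM, 0 with median-ratio scaling, a common total or quantile normalization, 2 with the replicate block and 0 to 2 with 1 library left out, with 0 without control 2 or cKO 3. Of the genes of glutathione synthesis and use, 1 passed, 5 with the replicate block (4 higher and 1 lower in cKO), 2 under the set block and 1 to 2 with 1 library left out. Of the NRF2 list, 1 passed, 3 with the replicate block and 1 to 2 with 1 library left out. Of the neighbours, 1 passed and 0 to 1 with 1 library left out, with 0 without control 1, cKO 2 or cKO 3. At about 3 to 10 fragments per library, Gstm2 is limited by counting error.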
